A study of Mus musculus with 468 samples.

Results

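Chemokines are small secreted proteins that draw leukocytes through tissues along their gradients. The genes described here are the 53 mouse genes whose symbol on the array starts with Ccl, Cxcl, Ccr, Cxcr or Cx3c and then, after any further lower-case letters, has a digit. They were taken by name, with no measured value, from 21931 genes with a symbol, and 62 of the 43681 probe sets belong to them. For the 8 genes with several probe sets the probe set with the highest mean log2 intensity over all arrays stood for the gene. By role the genes were 5 CXC ligands that attract neutrophils, 3 CXC ligands induced by interferons, 4 other CXC ligands, the platelet factor Cxcl4, the fractalkine gene Cx3cl1, 4 CC ligands that attract monocytes, 3 eotaxins, 5 macrophage inflammatory CC ligands, 9 CC ligands of lymphoid tissue, mucosa and skin, 10 CC receptors, 4 CXC and CX3C receptors and 3 atypical or receptor-like genes. The remaining gene, Ccrn4l (now Noct), encodes a circadian deadenylase-like protein and matches the name pattern only.

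Chemokines bind G protein-coupled receptors on leukocytes: ligands of the CXC class with an ELR motif act mainly on neutrophils, several CC ligands act on monocytes through Ccr2 or Ccr1, and eotaxins act on eosinophils through Ccr3. In adipose tissue they are made by adipocytes, stromal cells, endothelium and resident macrophages, and their levels in obese animals have been studied with the macrophages that gather there. Atypical receptors such as Cxcr7 (now Ackr3) bind chemokines without classical G protein signalling and clear them.

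The arrays compared fibroblast growth factor 21 (FGF21), a hormone that acts on adipocytes, with vehicle in male mice of 8 weeks. WT-chow and WT-HFD mice were C57BL/6 on chow or on a high fat diet. The db/db-chow mice, which lack a working leptin receptor, were C57BLKS/J from another supplier and ate a different chow. Strain, supplier and chow therefore go with genotype. Mice received saline vehicle, wild-type FGF21 (WT FGF21) at 1.25 mg/kg 2 times a day, or PEG30-FGF21 Q108, a pegylated FGF21, at a dose of 0.75 or of 2.5 mg/kg 2 times a week, for 2 or 5 days. The fat depots were inguinal (IWAT), epididymal (EWAT) and retroperitoneal (RPWAT) white fat and brown fat (BAT), in 96 groups of 3 to 5 arrays. Tissue was taken about 6 hours after the last injection of vehicle or WT FGF21 and about 30 hours after PEG30-FGF21 Q108, so for the pegylated protein the compound and the hours since injection cannot be told apart, and values of WT FGF21 and PEG30-FGF21 Q108 are only set side by side. The 3 treatments of a depot, model and day share their vehicle arrays. The labels do not say which arrays of different depots came from the same mouse.

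Values are log2 of the deposited intensity, with no further scaling, and changes are differences of log2 means. The median intensity of the arrays differed between the sets of a depot and model (11.15 to 11.83 in BAT of WT-chow and 29.02 to 31.04 in BAT of WT-HFD), so treatments were tested only within a depot, model and day. The only arrays whose median correlation with the arrays of their set was under 0.95 were 2 of IWAT, called the arrays that stood apart here: vehicle replicate 2 of db/db-chow at 2 d (0.882) and WT FGF21 replicate 3 of WT-HFD at 5 d (0.898). Brown adipocyte markers (5 genes) had mean levels of 9.53 to 11.6 in vehicle arrays of BAT, 6.04 to 8.59 in IWAT, 4.55 to 6.87 in EWAT and 5.19 to 9.71 in RPWAT, where the highest reached the BAT range. Of the 5 markers 3 were higher over models and days in IWAT, RPWAT and BAT (median changes 0.74, 0.74 and 0.19), and their part in the chemokine changes there was not tested. Skeletal muscle markers (7 genes) varied widely between vehicle arrays, from 4.76 to 12.7 in BAT, 5.89 to 13.07 in IWAT and 5.17 to 12.5 in RPWAT, against 4.84 to 5.95 in EWAT, and none of the 7 was called in any single comparison in BAT or IWAT. B cell markers (8 measured) reached mean levels of 5.08 to 9.52 in vehicle arrays of IWAT against 2.68 to 4.06 in BAT, and T cell markers (9 measured) 5.68 to 10.7 against 3.22 to 5.39, so IWAT held lymphoid transcripts in amounts that varied from array to array. B cell markers read 4.23 to 5.97 in EWAT and 3.83 to 6.13 in RPWAT, and T cell markers 4.43 to 6.84 and 4.34 to 8.10. These levels are as deposited, from sets whose array medians differ. The mean log2 intensity of 39 of the 53 genes in IWAT, 37 in EWAT, 37 in RPWAT and 31 in BAT was above that of the median probe set. In these bulk samples fewer cells of a type and less RNA per cell cannot be told apart.

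The first question was which chemokine genes responded to FGF21 over all treatments, models and days of a depot. In a limma N-way model of FGF21, mouse model and day, 22 of the 53 genes passed p under 0.001 in at least 1 depot and 31 in none. The share of all probe sets that passed in at least 1 depot was not counted, so only the counts per depot have a comparison. In IWAT 4 genes passed, 2 higher and 2 lower, against 7.65% of all probe sets (4.74% higher, 2.91% lower). In EWAT 13 passed, 1 higher and 12 lower, against 6.76% (3.57% and 3.19%). In RPWAT 10 passed, 3 higher and 7 lower, against 8.06% (5.17% and 2.88%), and in BAT 7 passed, 3 higher and 4 lower, against 19.4% (8.54% and 10.9%). As shares of the 53 genes these were 7.55% in IWAT, 24.5% in EWAT, 18.9% in RPWAT and 13.2% in BAT. The median change of the 53 genes was -0.05 in IWAT, -0.07 in EWAT, -0.02 in RPWAT and -0.02 in BAT. Because changes over models and days pool the treatments, opposite changes of a gene can cancel in them. Without the 2 IWAT arrays that stood apart, 8 genes passed in IWAT, among them the 4 that passed with all arrays: Ccl11 (0.30), Ccl25 (0.31), Cx3cl1 (-0.15) and Cxcr4 (-0.34). Beside each change over models and days below stands its p adjusted over all probe sets; p-values over models and days with single replicates left out are unadjusted, as is the threshold of 0.001. A fit without replicate 1 leaves out the array of that number in every group of the depot, and values given for such fits are the highest p over replicates 1 to 5, so other replicates can lose a call too. Of the calls over models and days, Cxcr4 in IWAT was lost in all 5 such fits, Ccl5 in EWAT and Ccrn4l in RPWAT in 4, and Ccl11 in IWAT and RPWAT, Ccl17 and Cxcl10 in EWAT, Ccl22 in RPWAT and Cxcl16 in BAT in 3. After quantile normalisation Cx3cl1 in IWAT, Ccl11 and Ccrn4l in RPWAT, Cxcl10 in EWAT and Cxcl16 in BAT no longer passed.

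**Figure D1:**
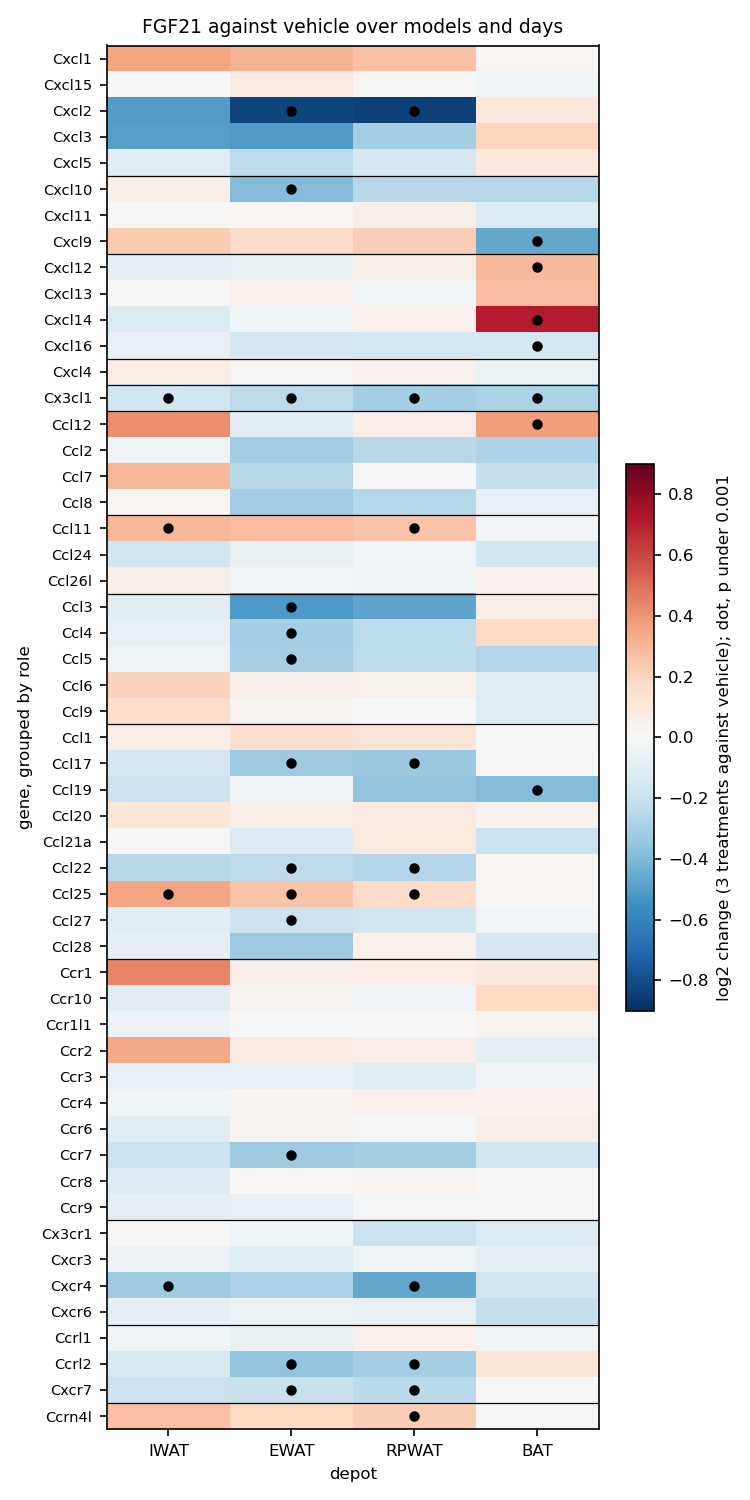
Change in log2 intensity (colour) of the 53 genes (rows, grouped by role) in the 4 depots (columns), as the mean of the 3 FGF21 treatments against vehicle over models and days; a dot marks p under 0.001. Cx3cl1 has a dot in every depot, Cxcl14 has the deepest red cell, 0.71 in BAT, and Cxcl2 the deepest blue ones, -0.82 in EWAT and -0.84 in RPWAT.

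In the tests of each treatment against vehicle of the same depot, model and day, 72 in all, the 53 genes gave 189 calls at an adjusted p under 0.05 in 3816 tests. There were 24 calls in IWAT (18 higher, 6 lower; 2.52% of the tests against 3.32% for all probe sets), 45 in EWAT (20 higher, 25 lower; 4.72% against 2.00%), 23 in RPWAT (13 higher, 10 lower; 2.41% against 2.32%) and 97 in BAT (48 higher, 49 lower; 10.2% against 9.82%). In this count 40 genes were called at least once, 19 of them in both directions, and 13 never: Ccl1, Ccl20, Ccl21a, Ccl28, Ccr1l1, Ccr3, Ccr4, Ccr6, Ccr8, Ccr9, Ccrl1, Cxcl15 and Cxcr3. How many of all probe sets were called at least once, in both directions or never was not counted. Whether these numbers are particular to the family was therefore not tested. Cx3cl1 was called lower 11 times, Cxcr7 7 times and Cxcl9 and Cxcr4 6 times each; Ccl25 and Ccrn4l were called higher 10 times each and Cxcl12 and Cxcl14 9 times each.

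The neutrophil-attracting ligands Cxcl1, Cxcl2, Cxcl3 and Cxcl5, which act on Cxcr2, rose in some comparisons and fell in others. They rose after WT FGF21 in BAT of db/db-chow mice, Cxcl1 rose after WT FGF21 in all 3 white depots of WT-HFD mice at 5 d, and Cxcl2 fell over models and days in EWAT and RPWAT. The genes of Cxcl1, Cxcl2 and Cxcl3 lie close together on mouse chromosome 5 and have a kappa-B consensus, the binding motif of NF-kappa-B factors, just upstream of the start. The RefSeq promoters (GRCm38.p6, 250 bases before to 50 after the start) of these 3 genes are shown because they rose together in BAT after WT FGF21, with that of Cxcl10, which was not called there. They are chr5:90890995-90891294, chr5:90903649-90903948 and chr5:90785851-90786150 on the plus strand and chr5:92348840-92349139 on the minus strand, each read 5′ to 3′ along its gene, and capitals mark kappa-B matches on either strand, joined where they overlap.
Cxcl1: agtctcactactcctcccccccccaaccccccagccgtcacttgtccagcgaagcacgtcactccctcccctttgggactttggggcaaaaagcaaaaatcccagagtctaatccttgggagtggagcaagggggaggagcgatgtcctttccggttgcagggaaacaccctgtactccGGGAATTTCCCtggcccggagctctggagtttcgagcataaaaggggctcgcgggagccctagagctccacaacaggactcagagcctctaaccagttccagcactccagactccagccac
Cxcl2: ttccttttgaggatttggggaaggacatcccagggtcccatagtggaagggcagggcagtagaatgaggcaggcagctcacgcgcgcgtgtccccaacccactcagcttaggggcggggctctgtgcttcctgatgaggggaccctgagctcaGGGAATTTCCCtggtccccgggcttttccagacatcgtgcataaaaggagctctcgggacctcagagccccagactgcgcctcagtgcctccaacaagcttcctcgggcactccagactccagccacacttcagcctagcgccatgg
Cxcl3: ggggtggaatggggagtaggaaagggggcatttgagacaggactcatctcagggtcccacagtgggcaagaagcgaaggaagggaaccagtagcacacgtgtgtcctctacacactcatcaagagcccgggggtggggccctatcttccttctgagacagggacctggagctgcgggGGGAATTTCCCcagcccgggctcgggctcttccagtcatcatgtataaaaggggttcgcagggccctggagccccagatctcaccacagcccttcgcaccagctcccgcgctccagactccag
Cxcl10: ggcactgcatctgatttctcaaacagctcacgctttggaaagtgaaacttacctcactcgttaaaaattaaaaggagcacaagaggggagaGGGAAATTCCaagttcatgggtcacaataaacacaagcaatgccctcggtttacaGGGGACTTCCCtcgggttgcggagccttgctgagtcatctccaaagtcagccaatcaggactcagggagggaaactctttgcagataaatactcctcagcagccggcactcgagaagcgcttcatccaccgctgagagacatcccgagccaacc
The first base of the match lay 71 bases before the start in Cxcl1, 97 in Cxcl2 and 73 in Cxcl3, with the same letters in all 3, and 159 and 104 in Cxcl10. Of 41 genes of the family with a RefSeq promoter, 12 held the consensus, 8 the AP-1 motif TGANTCA and 13 TATAAA, searched on both strands. A gene counted if any of its promoters matched, with 47 promoters for the 41 genes. Of all 32851 promoters, each counted singly, 8.46%, 7.81% and 13.6% matched, so the units differ. Of the other genes higher in BAT of db/db-chow mice at 5 d with WT FGF21, Ccr1 held 1 kappa-B match. Ccl3, Ccl12, Ccl17 and Cxcl14 held none, and Cxcl5, Ccl2, Ccl4 and Ccl7 had no promoter to search. All of these are matches of letters, and binding was not measured.

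In BAT of db/db-chow mice at 5 d, Cxcl2 read 5.77, 5.998, 6.51, 5.57 and 5.30 in the vehicle arrays and 8.19, 8.61, 8.99, 9.56 and 8.49 after WT FGF21, a change of 2.94 (SE 0.31, adjusted p = 7.67e-13). After PEG30-FGF21 Q108 at 0.75 mg/kg it read 4.74, 4.67, 4.45, 4.61 and 4.49, 1.24 (SE 0.31, adjusted p = 0.00119) below the same vehicle arrays. Every WT FGF21 array was above and every 0.75 mg/kg array below all vehicle arrays. At 2.5 mg/kg the change of Cxcl2 was -0.79 (SE 0.31, adjusted p = 0.0576), and at 2 d WT FGF21 gave 1.32 (SE 0.31, adjusted p = 0.00188), with an adjusted p up to 0.0567 without replicate 2.

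Cxcl1 in the same BAT samples read 6.07, 6.70, 6.52, 6.40 and 5.83 with vehicle and 8.32, 8.12, 8.53, 9.22 and 7.75 with WT FGF21 (change 2.09, SE 0.36, adjusted p = 4.85e-06), again without overlap. It fell by 1.15 (SE 0.36, adjusted p = 0.0122) at 0.75 mg/kg and by 0.98 (SE 0.36, adjusted p = 0.0403) at 2.5 mg/kg of PEG30-FGF21 Q108, calls that were lost when single replicates were left out (adjusted p up to 0.0645 without replicate 2 and 0.112 without replicate 2). Cxcl3 rose by 2.41 (SE 0.17, adjusted p = 1.71e-21) and Cxcl5 by 1.61 (SE 0.17, adjusted p = 2.12e-12) after WT FGF21 at 5 d. Both genes were dim in BAT, with mean log2 levels over its arrays of 2.77 for Cxcl3 and 2.17 for Cxcl5. Their mean percentiles among all probe sets were 22.9 and 9.89. At 2 d Cxcl3 had risen by 0.87 (SE 0.17, adjusted p = 0.000201) and Cxcl1 by 1.28 (SE 0.36, adjusted p = 0.0138), the latter lost in leave-outs (adjusted p up to 0.182 without replicate 2). Cxcl15, a lung chemokine, was called nowhere.

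WT FGF21 at 5 d in db/db-chow BAT called 13 of the 53 genes, 12 of them higher, against 11.6% of all probe sets (5.66% higher). Besides the 4 CXC ligands these were Ccl2, Ccl7, Ccl12, Ccl3, Ccl4, Ccr1, Ccl17 and Cxcl14 higher and Cx3cl1 lower. In that comparison 7 of 19 genes of the cytokine and NF-kappa-B regulator list were higher (Il1b by 1.81, Tnf by 1.35, Il6 by 1.30) and 4 of 13 macrophage markers were higher, while 2 of 8 immediate early genes (Nr4a1, Jun) and 5 of 8 endothelial markers were lower. Of 9 neutrophil markers none was higher and 1 (Mmp9) was lower; their mean level was 4.86 to 5.21 in the vehicle arrays and 4.86 to 5.44 after WT FGF21. The mean level of the macrophage markers was 7.31 to 8.01 with vehicle and 7.80 to 8.40 with WT FGF21. The part of these genes in the changes of the chemokines was not tested.

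In WT-HFD mice at 5 d, Cxcl1 in EWAT read 6.14, 6.87 and 5.93 with vehicle and 8.27, 8.91, 8.25, 8.78 and 8.30 with WT FGF21 (change 2.19, SE 0.34, adjusted p = 2.83e-06). In RPWAT it read 6.22, 4.92, 6.44, 5.97 and 6.05 and 8.11, 7.84, 7.97, 8.13 and 7.95 (change 2.08, SE 0.35, adjusted p = 2.23e-05). In both depots all WT FGF21 arrays were above all vehicle arrays. In IWAT the vehicle arrays read 7.11, 5.89, 6.62, 6.11 and 6.52 and the WT FGF21 arrays 9.96, 10.03, 5.61, 11.23 and 10.69, where replicate 3 is the array that stood apart and the only one not above the vehicle range. The change of Cxcl1 in IWAT was 3.06 (SE 0.50, adjusted p = 1.3e-05) with it and 4.03 (adjusted p = 6.53e-12) without the 2 arrays that stood apart. After PEG30-FGF21 Q108 the change of Cxcl1 was between 0.09 and 0.80 in the white depots of WT-HFD mice at 5 d and passed no test.

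Of the 3 white depots of these mice Cxcl2 passed the test with Cxcl1 in IWAT. Its IWAT values were 7.63, 5.65, 6.41, 6.11 and 4.67 with vehicle and 9.90, 10.07, 4.86, 11.42 and 11.15 with WT FGF21, a change of 3.39 (SE 0.78, adjusted p = 0.0025), or 4.54 without the 2 arrays that stood apart. In the same comparison the change of Cxcl2 was -1.48 (SE 0.53, adjusted p = 0.139) in EWAT and -0.78 (SE 0.57, adjusted p = 0.69) in RPWAT; whether the depots differ was not tested. Immediate early genes were higher beside Cxcl1 in all 3 white depots: 5 of 8 in IWAT (median change 1.36), 4 of 8 in EWAT (1.16) and 4 of 8 in RPWAT (1.07), where 2.25%, 1.31% and 1.26% of all probe sets were higher. Of the 53 genes 3 were called in EWAT (2.33% of all probe sets) and 1 in RPWAT (2.39%). The mean level of the immediate early genes was 7.64 to 8.41 with vehicle and 8.98 to 9.08 with WT FGF21 in RPWAT. No neutrophil marker of 9 was called in IWAT.

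WT FGF21 at 5 d in WT-HFD IWAT called 10 of the 53 genes, 8 higher and 2 lower, against 5.87% of all probe sets. The macrophage inflammatory ligands Ccl3 (2.42, adjusted p = 0.00598) and Ccl4 (2.14, 0.000465) and the interferon-induced Cxcl10 (1.90, 0.0184) and Cxcl11 (1.24, 0.00485) were among those higher. Cxcl12 (-0.54) and the eotaxin Ccl24 (-0.85) were lower. Without the 2 arrays that stood apart the changes were 3.36 for Ccl3, 2.83 for Ccl4, 2.93 for Cxcl10, 1.74 for Cxcl11 and -0.35 for Cxcl12, all still called, while Ccl24, at -0.36 (adjusted p = 0.293), was not. In the same comparison 8 of 19 genes of the cytokine list were higher (Il6 by 3.42, Il1b by 2.72), and all 8 endothelial markers, 4 of 7 adipocyte markers and 4 of 7 fibroblast markers were lower; their part was not tested. When single replicates were left out the highest adjusted p was 0.126 without replicate 5 for Ccl3, 0.221 without replicate 5 for Cxcl10, 0.171 without replicate 5 for Cxcl11, 0.173 without replicate 3 for Cxcl12 and 0.0891 without replicate 5 for Cxcl2.

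**Figure D2:**
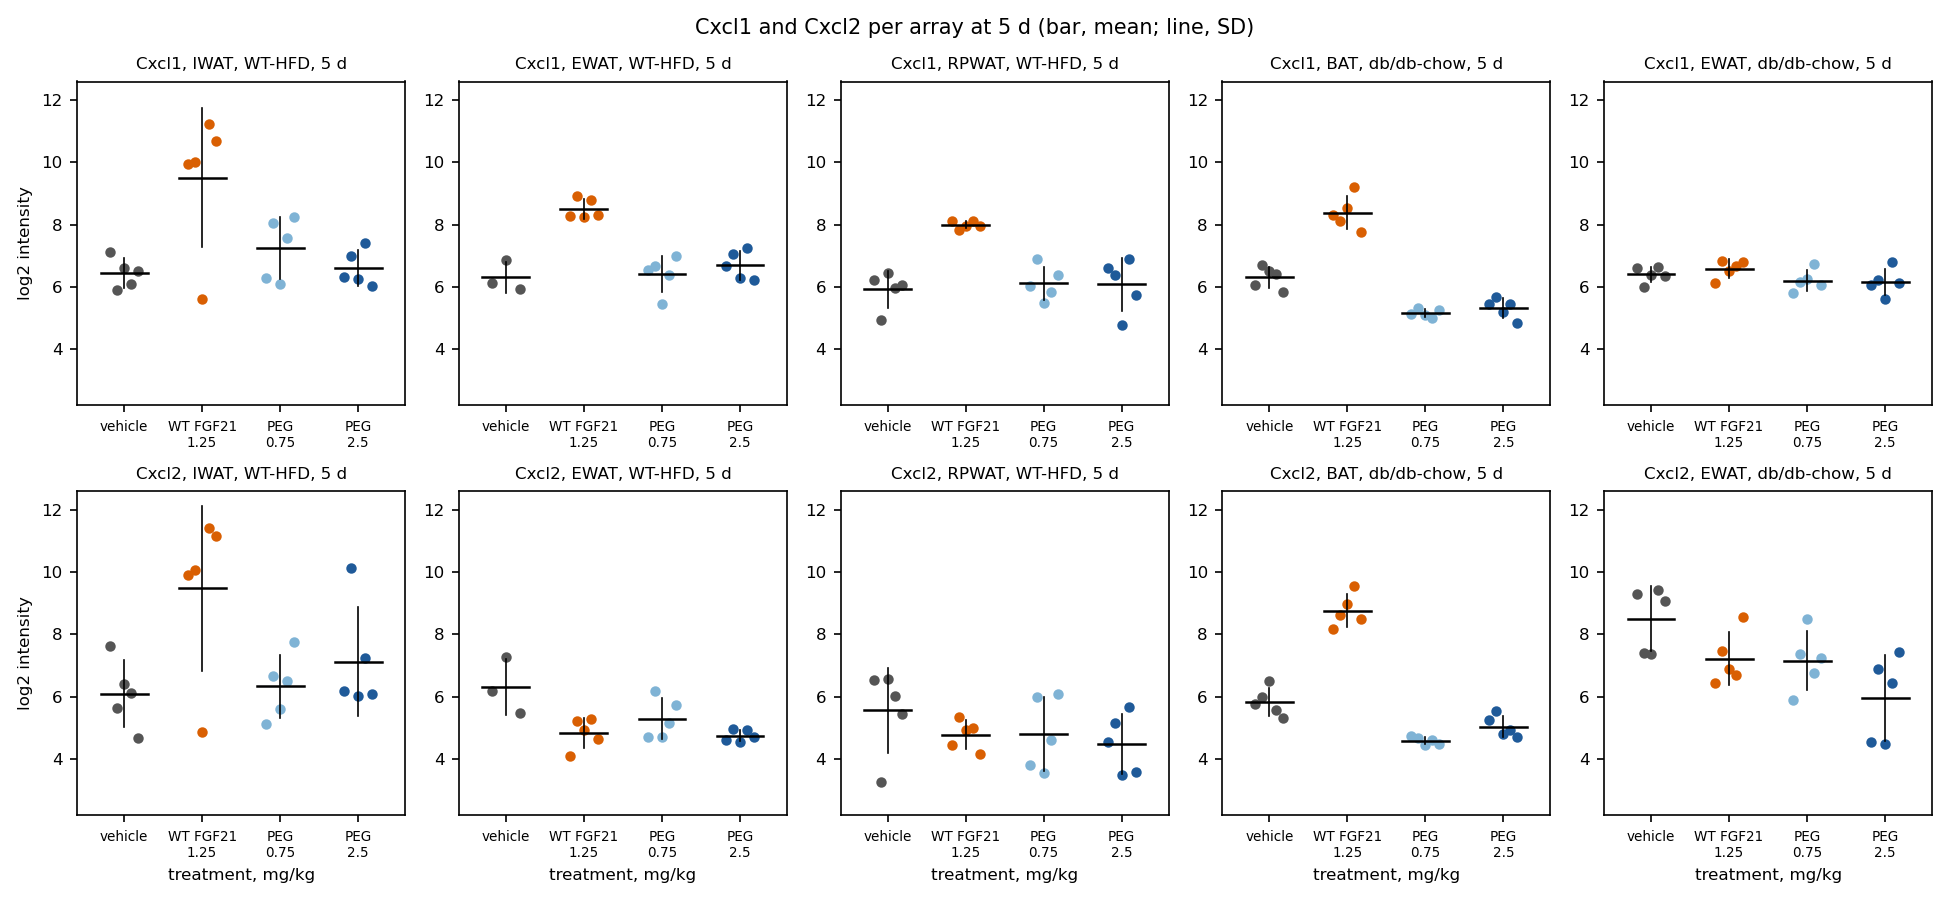
Log2 intensity of Cxcl1 (top) and Cxcl2 (bottom) on each array at 5 d in IWAT, EWAT and RPWAT of WT-HFD mice and in BAT and EWAT of db/db-chow mice, by treatment (dose in mg/kg; PEG, PEG30-FGF21 Q108); points are arrays, horizontal bars means and vertical lines SD. WT FGF21 arrays sit above vehicle for Cxcl1 in the first 4 columns, except 1 IWAT array at 5.61, while Cxcl2 is below vehicle at 2.5 mg/kg in db/db-chow EWAT on all but 1 array.

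Over models and days Cxcl2 was lower in EWAT by 0.82 (SE 0.17, adjusted p = 0.000134) and in RPWAT by 0.84 (SE 0.20, adjusted p = 0.0011). The change in EWAT was -0.71 in WT-chow, -0.76 in WT-HFD and -1.0002 in db/db-chow mice. With single replicates left out the unadjusted p went up to 0.0012 without replicate 4 in EWAT and to 0.00618 without replicate 3 in RPWAT. In IWAT the change was -0.50 (SE 0.31, adjusted p = 0.332) and in BAT 0.10 (SE 0.19, adjusted p = 0.76). These are means over opposite changes. In the 18 single comparisons of a depot Cxcl2 changed by -2.74 to 3.39 in IWAT (12 negative, 6 positive) and by -1.24 to 2.94 in BAT (11 and 7). In EWAT it changed by -2.56 to 0.32 and in RPWAT by -1.58 to 0.31 (16 and 2 in each).

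The lowest Cxcl2 levels relative to vehicle in EWAT were those of db/db-chow mice at 5 d on 2.5 mg/kg PEG30-FGF21 Q108. Vehicle arrays read 9.31, 7.40, 7.36, 9.42 and 9.06 and treated arrays 4.53, 6.89, 4.47, 6.43 and 7.44, so only 1 treated array lay within the vehicle range, and the change was -2.56 (SE 0.46, adjusted p = 0.000301). This treatment called 5 of the 53 genes, 1 higher and 4 lower, against 1.05% of all probe sets: Ccl4 (-1.05, adjusted p = 0.000134), Ccl3 (-1.33, 0.00293) and Cxcl3 (-2.08, 0.0146, lost in leave-outs with an adjusted p up to 0.174 without replicate 4) fell with Cxcl2, and Ccl25 rose (adjusted p up to 0.0506 without replicate 3). Il1b (-2.08) and Tnf (-0.93) fell beside them, the only 2 of 19 genes of the cytokine list that were called, and none of 13 macrophage markers was called. Ccl4 also fell by 0.92 (SE 0.18, adjusted p = 0.00332) at 0.75 mg/kg and by 0.86 (SE 0.18, adjusted p = 0.00412) with WT FGF21, with adjusted p up to 0.0723 without replicate 1 and 0.0553 without replicate 4.

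The monocyte-attracting ligands Ccl2, Ccl7, Ccl8 and Ccl12, several of which act on Ccr2, went up in some comparisons and down in others. In BAT of db/db-chow mice at 5 d Ccl7 read 7.65, 8.17, 8.32, 8.60 and 7.84 with vehicle and 10.004, 10.23, 10.14, 10.22 and 9.99 with WT FGF21 (change 2.002, SE 0.51, adjusted p = 0.00278), without overlap. Ccl12 rose there by 1.57 (SE 0.28, adjusted p = 1.11e-05) and Ccl2 by 1.48 (SE 0.44, adjusted p = 0.0146), the latter lost in leave-outs (adjusted p up to 0.0618 without replicate 2). Over models and days Ccl12 was the only ligand of this group that passed in any depot, with 0.38 (SE 0.10, adjusted p = 0.0017) in BAT; the unadjusted p reached 0.00342 without replicate 1.

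In BAT of WT-chow mice at 2 d Ccl7 and Ccl2 were lower after the pegylated protein. Ccl7 read 5.83, 7.31, 6.84, 6.63 and 6.87 with vehicle and 4.45, 5.38, 4.97, 5.03 and 3.76 at 0.75 mg/kg (change -1.98, SE 0.51, adjusted p = 0.00577), with all treated arrays below all vehicle arrays. It fell by 1.83 (SE 0.51, adjusted p = 0.0185) at 2.5 mg/kg, and Ccl2 fell by 1.79 (SE 0.44, adjusted p = 0.00406) and 1.61 (SE 0.44, adjusted p = 0.0174) at the 2 doses. With single replicates left out the adjusted p went up to 0.0928 without replicate 5 and 0.091 without replicate 5 for Ccl7 and to 0.0897 without replicate 5 and 0.115 without replicate 2 for Ccl2. Immediate early genes fell in the same arrays, 6 of 8 at 0.75 mg/kg with a median of -1.62, where 6.16% of all probe sets were called and 2.41% were lower; their mean level was 7.53 to 8.16 with vehicle and 5.40 to 6.98 at 0.75 mg/kg, and their part was not tested.

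In EWAT and RPWAT of WT-chow mice at 2 d, the monocyte ligand Ccl12 and the receptors Ccr2 and Ccr1 were higher after WT FGF21. Of the other ligands of that group Ccl7 was called in EWAT only, with 1.51 (SE 0.49, adjusted p = 0.0597) in RPWAT, and Ccl2 and Ccl8 in neither. WT FGF21 called 9 of the 53 genes in EWAT (8 higher; of all probe sets 5.76%, and 3.48% higher) and 8 in RPWAT (7 higher; 4.25% and 2.45%). In EWAT the receptor Ccr2 read 7.31, 7.37, 7.07, 7.13 and 7.23 with vehicle and 8.64, 8.25, 7.85, 7.93 and 7.93 with WT FGF21 (change 0.90, SE 0.19, adjusted p = 0.000426). Its ligand Ccl12 read 5.70, 5.91, 6.34, 6.60 and 6.20 and 7.59, 6.75, 7.32, 7.24 and 7.16 (change 1.06, SE 0.25, adjusted p = 0.00196). For both genes every treated array was above every vehicle array, and the adjusted p of Ccl12 went up to 0.0541 without replicate 1.

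The others higher in EWAT were Ccl7 (1.52), the fractalkine receptor Cx3cr1 (0.91), Ccr1 (0.73), the macrophage-derived ligands Ccl9 (0.61) and Ccl6 (0.59) and Ccrn4l (0.62). In RPWAT Ccl12 (1.18), Ccr2 (0.93), Ccr1 (0.84), Ccl6 (0.50), Ccl9 (0.49), the eotaxin Ccl11 (0.80) and Ccrn4l (0.64) were higher. Ccl27, a skin chemokine, was lower in both (-0.47 and -0.56). In leave-outs the adjusted p went up to 0.0694 without replicate 1 for Ccl7 and 0.159 without replicate 3 for Ccr1 in EWAT, and to 0.0824 without replicate 5 for Ccr1, 0.0544 without replicate 4 for Ccr2 and 0.0656 without replicate 1 for Ccl11 in RPWAT. The smaller changes were lost as well: Ccl6, Ccl9, Ccrn4l and Ccl27 reached adjusted p of 0.0951 without replicate 1, 0.098 without replicate 1, 0.0802 without replicate 2 and 0.0722 without replicate 3 in EWAT and of 0.273 without replicate 5, 0.287 without replicate 5, 0.116 without replicate 3 and 0.169 without replicate 4 in RPWAT. Macrophage markers were higher in the same comparisons, 7 of 13 in EWAT (mean level 7.82 to 8.02 with vehicle, 8.27 to 8.73 with WT FGF21) and 6 of 13 in RPWAT (7.80 to 8.57 and 8.48 to 8.80). The part of these macrophage transcripts in the higher chemokine genes was not tested.

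At 5 d in WT-chow EWAT Ccl2 was lower by 1.14 (SE 0.34, adjusted p = 0.039) and Ccl7 by 1.16 (SE 0.35, adjusted p = 0.0452) with WT FGF21, and neither call held when single replicates were left out (adjusted p up to 0.18 without replicate 5 and 0.325 without replicate 4). The difference between 2 d and 5 d was not tested. Ccl8 was lower in WT-HFD mice at 2 d on 2.5 mg/kg PEG30-FGF21 Q108. In EWAT Ccl8 read 9.51, 9.82, 10.48 and 9.19 with vehicle and 8.61, 8.80, 8.50, 8.51 and 7.69 with treatment (change -1.33, SE 0.29, adjusted p = 0.00336), without overlap, and in RPWAT it was 1.43 (SE 0.40, adjusted p = 0.0394) lower. In leave-outs the adjusted p for Ccl8 went up to 0.145 without replicate 3 and 0.299 without replicate 4.

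Among the macrophage inflammatory ligands Ccl3, Ccl4, Ccl5, Ccl6 and Ccl9, 3 were lower over models and days in EWAT and none passed elsewhere. Ccl3 changed by -0.51 (SE 0.10, adjusted p = 4.01e-05), Ccl4 by -0.31 (SE 0.06, adjusted p = 0.000154) and Ccl5, which T cells also make, by -0.30 (SE 0.09, adjusted p = 0.0118), with an unadjusted p up to 0.00533 without replicate 1 for Ccl5. The change of Ccl3 in EWAT was -0.24 in WT-chow, -0.45 in WT-HFD and -0.85 in db/db-chow mice. In BAT of db/db-chow mice at 5 d Ccl3 went the other way after WT FGF21, from 4.82, 5.04, 5.60, 5.17 and 4.81 to 6.19, 6.80, 6.34, 7.46 and 5.76 (change 1.42, SE 0.23, adjusted p = 1.55e-06), with the lowest treated array above the highest vehicle array. Ccl4 rose there by 1.35 (SE 0.17, adjusted p = 3.99e-10). Ccl9 fell by 0.94 (SE 0.29, adjusted p = 0.0148) in WT-chow BAT and by 0.62 (SE 0.16, adjusted p = 0.0108) in WT-chow EWAT at 2.5 mg/kg and 5 d, and both calls were lost in leave-outs (adjusted p up to 0.104 without replicate 3 and 0.146 without replicate 3).

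The interferon-induced ligands of Cxcr3, the receptor of activated T cells, are Cxcl9, Cxcl10 and Cxcl11; Cxcl9 fell in BAT and was called higher in EWAT. In BAT Cxcl9 was lower over models and days by 0.46 (SE 0.08, adjusted p = 1.47e-06), with -0.49 in WT-chow, -0.74 in WT-HFD and -0.16 in db/db-chow mice. In WT-chow BAT at 5 d it read 8.13, 8.14, 8.06, 7.75 and 8.55 with vehicle and 7.26, 7.74, 7.07, 6.58 and 7.37 with WT FGF21 (change -0.92, SE 0.23, adjusted p = 0.00308), all treated arrays below all vehicle arrays. In WT-HFD BAT it fell by 0.93 (SE 0.23, adjusted p = 0.00266) and 1.19 (SE 0.23, adjusted p = 3.77e-05) at the low and the high dose of PEG30-FGF21 Q108 at 5 d.

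Over models and days Cxcl9 changed in EWAT by 0.16 (SE 0.09, adjusted p = 0.258) and did not pass, but it was called higher in 3 single comparisons. In WT-chow EWAT at 5 d it read 8.94, 8.71, 8.66, 8.75 and 8.82 with vehicle and 9.80, 10.13, 10.06, 10.03 and 10.05 at 2.5 mg/kg (change 1.24, SE 0.22, adjusted p = 2.42e-05), without overlap, and the call held in every leave-out of a replicate. In WT-HFD EWAT at 5 d it was 0.81 (SE 0.25, adjusted p = 0.0465) higher at 0.75 mg/kg and 0.92 (SE 0.25, adjusted p = 0.0163) higher at 2.5 mg/kg, and both calls were lost in leave-outs (adjusted p up to 0.351 without replicate 4 and 0.101 without replicate 3). The difference of the Cxcl9 response between depots was not tested.

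Cxcl10, an interferon-induced ligand with kappa-B matches in the promoter shown above, fell in BAT of db/db-chow mice at 5 d under both doses of the pegylated protein. It read 7.54, 7.60, 7.02, 7.32 and 6.67 with vehicle and 5.66, 6.61, 5.83, 5.76 and 5.62 at 0.75 mg/kg (change -1.33, SE 0.28, adjusted p = 0.000136); the highest treated array lay just below the lowest vehicle array. At 2.5 mg/kg it fell by 1.30 (SE 0.28, adjusted p = 0.000216), while with WT FGF21 the change was 0.14 (SE 0.28, adjusted p = 0.846). Of the 53 genes 10 were called at 0.75 mg/kg (2 higher, 8 lower; 21.0% of all probe sets) and 12 at 2.5 mg/kg (6 higher, 6 lower; 18.8%). Over models and days Cxcl10 was lower in EWAT, -0.39 (SE 0.10, adjusted p = 0.00617), with an unadjusted p up to 0.00574 without replicate 1. Cxcl11 was called in the single comparison of WT-HFD IWAT at 5 d with WT FGF21.

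Cxcl14, an epithelial and adipose chemokine that brown adipocytes of mice are known to secrete, and Cxcl12, the ligand of Cxcr4 and Cxcr7, had the smallest p in BAT. Cxcl14 was higher over models and days by 0.71 (SE 0.07, adjusted p = 5.44e-15). In db/db-chow BAT all 6 comparisons called it higher, by 0.86 to 1.501, of which 0.75 mg/kg at 2 d was lost in leave-outs (adjusted p up to 0.095 without replicate 1). At 5 d it read 6.89, 7.35, 6.998, 6.96 and 6.98 with vehicle and 7.99, 8.96, 8.51, 8.66 and 8.56 at 2.5 mg/kg (change 1.501, SE 0.21, adjusted p = 7.77e-09), without overlap. In the white depots Cxcl14 changed by -0.12 in IWAT, -0.04 in EWAT and 0.04 in RPWAT and did not pass.

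The effect of FGF21 on Cxcl14 in BAT was 0.25 in WT-chow, 0.69 in WT-HFD and 1.17 in db/db-chow mice, and the difference between db/db-chow and WT-chow was 0.92 (SE 0.18, adjusted p = 7.18e-05). In IWAT the difference was 0.91 (SE 0.27, adjusted p = 0.0483), from -0.46 in WT-chow to 0.45 in db/db-chow mice, but it did not pass without the 2 arrays that stood apart. The second probe set of Cxcl14 gave 1.28 in BAT.

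For Cxcl12 the probe sets of the gene disagreed. The chosen probe set was higher in BAT over models and days by 0.29 (SE 0.04, adjusted p = 7.47e-11). In WT-chow BAT at 5 d it read 9.31, 9.42, 8.88, 9.31 and 9.38 with vehicle and 10.18, 10.18, 10.27, 10.23 and 9.70 at 2.5 mg/kg (change 0.85, SE 0.10, adjusted p = 2.63e-10), and it rose by 0.75 with WT FGF21 and by 0.78 at 0.75 mg/kg. Another Cxcl12 probe set, named after a different RefSeq transcript of the gene, changed in BAT by -0.54, and the third was higher by 0.17. The second one was also lower in EWAT (-0.24) and RPWAT (-0.19) at p under 0.001, where the chosen probe set did not pass, and the third was lower in IWAT (-0.16). In the same WT-chow BAT samples the second probe set read 8.10 to 8.35 on the vehicle arrays and 7.02 to 7.57 on the 15 treated arrays, while the chosen one read 8.88 to 9.42 and 9.70 to 10.35. Vehicle and treated arrays did not overlap for either probe set, in opposite directions, so a direction for the Cxcl12 gene as a whole was not obtained: the mean of its probe sets changed by -0.027.

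The FGF21 effect on the chosen Cxcl12 probe set was 0.50 in WT-chow, 0.26 in WT-HFD and 0.11 in db/db-chow BAT, with a difference between db/db-chow and WT-chow of -0.39 (SE 0.09, adjusted p = 0.00136). At 5 d the second probe set had means of 8.18 with vehicle and 7.37 to 7.45 with treatment in WT-chow BAT. In db/db-chow BAT these were 8.91 and 7.81 to 8.05, and the difference between models was not tested on it. Cxcl16, a membrane-bound ligand of Cxcr6, was lower in BAT, -0.16 (SE 0.04, adjusted p = 0.00317), with an unadjusted p up to 0.00522 without replicate 5. Changes of similar size in EWAT (-0.15, adjusted p = 0.0198) and RPWAT (-0.16, adjusted p = 0.0354) did not pass, nor did -0.07 in IWAT. The second Cxcl16 probe set passed in EWAT (-0.30, adjusted p = 0.00134) and not in BAT (-0.17, adjusted p = 0.138). Cxcl13, the chemokine that draws B cells into follicles, rose in IWAT of db/db-chow mice at 5 d with WT FGF21. Its values were 11.20, 9.58, 9.39, 9.88 and 8.74 with vehicle and 11.73, 11.93, 11.49, 12.49 and 12.13 with treatment (change 2.19, SE 0.47, adjusted p = 0.0148), all treated arrays above the vehicle arrays. B cell markers in the same arrays had mean levels of 5.08 to 7.40 with vehicle and 6.53 to 8.39 with WT FGF21, none of 8 called, with a median change of 1.54; their part was not tested. With single replicates left out the adjusted p of Cxcl13 went up to 0.313 without replicate 5.

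**Figure D3:**
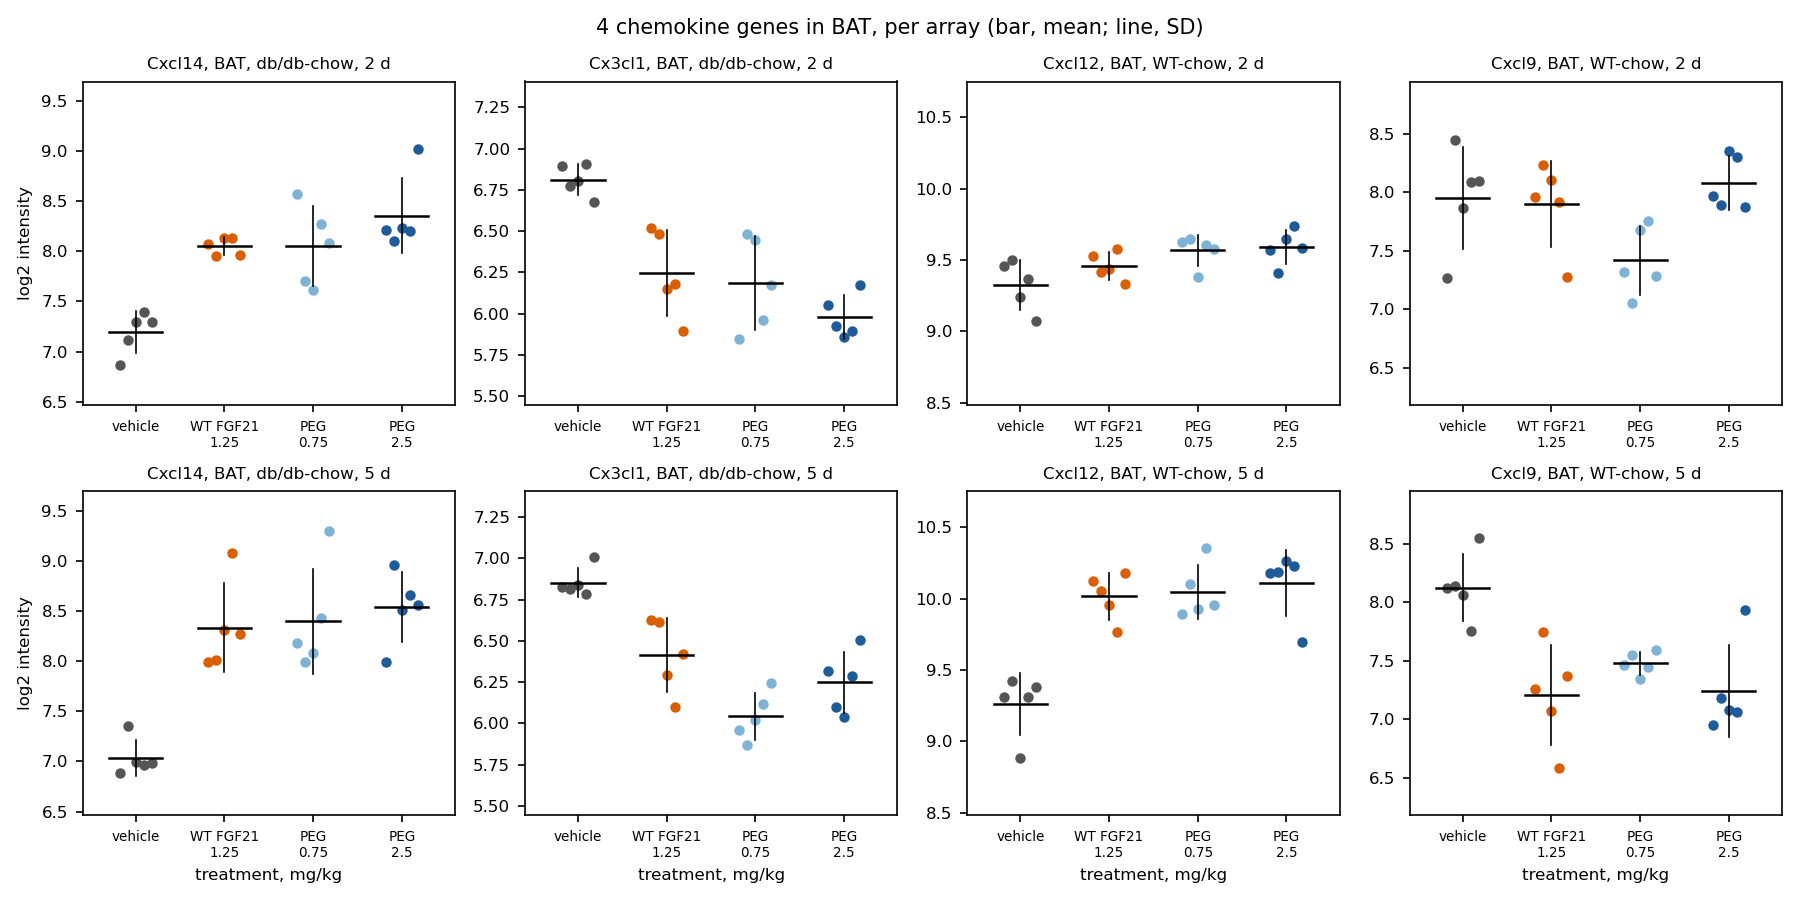
Log2 intensity in BAT on each array at 2 d (top) and 5 d (bottom) of Cxcl14 and Cx3cl1 in db/db-chow mice and of Cxcl12 (chosen probe set) and Cxcl9 in WT-chow mice, by treatment (dose in mg/kg; PEG, PEG30-FGF21 Q108); points are arrays, horizontal bars means and vertical lines SD. At 5 d the treated arrays of Cxcl14 and Cxcl12 all lie above their vehicle arrays and those of Cx3cl1 all below, while 1 array of Cxcl9 at 2.5 mg/kg reaches the vehicle range.

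Cx3cl1, the membrane-tethered chemokine fractalkine that binds Cx3cr1 on monocytes and macrophages, was the only gene of the family that passed in all 4 depots, lower in each. Over models and days it changed by -0.17 (SE 0.04, adjusted p = 0.000843) in IWAT, -0.23 (SE 0.05, adjusted p = 0.000673) in EWAT, -0.30 (SE 0.06, adjusted p = 8.1e-05) in RPWAT and -0.29 (SE 0.04, adjusted p = 5.88e-08) in BAT. The depots may come from the same mice and are not independent.

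In BAT the lower Cx3cl1 level lay in the db/db-chow mice: the effect was -0.05 in WT-chow, -0.17 in WT-HFD and -0.65 in db/db-chow mice, a difference between db/db-chow and WT-chow of -0.60 (SE 0.11, adjusted p = 3.61e-05). All 6 comparisons in db/db-chow BAT called Cx3cl1 lower, with changes from -0.83 to -0.44, of which WT FGF21 at 5 d was lost in leave-outs (adjusted p up to 0.102 without replicate 4). At 5 d it read 6.83, 6.82, 6.84, 6.78 and 7.01 with vehicle and 5.96, 5.87, 6.02, 6.12 and 6.24 at 0.75 mg/kg (change -0.81, SE 0.13, adjusted p = 5.12e-07), without overlap. Its receptor Cx3cr1 passed over models and days in no depot and was called in both directions in single comparisons.

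In IWAT of db/db-chow mice at 2 d Cx3cl1 was called lower and Ccl25 higher under all 3 treatments, against a vehicle group that holds an array that stood apart. The changes of Cx3cl1 were -0.51 with WT FGF21, -0.39 at 0.75 mg/kg and -0.34 at 2.5 mg/kg, and those of Ccl25 0.75, 0.62 and 0.54. Without the 2 arrays that stood apart the changes were -0.33, -0.21 and -0.15 for Cx3cl1 and 0.48, 0.34 and 0.26 for Ccl25, and of these 6 only WT FGF21 on Ccl25 was called (adjusted p = 0.0411). That call was lost in leave-outs too (adjusted p up to 0.0567 without replicate 2).

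The eotaxin Ccl11, which attracts eosinophils through Ccr3, was higher over models and days in IWAT by 0.30 (SE 0.07, adjusted p = 0.00235) and in RPWAT by 0.26 (SE 0.07, adjusted p = 0.00949). In EWAT the change was 0.28 (SE 0.08, adjusted p = 0.0198) and in BAT -0.03 (SE 0.05, adjusted p = 0.731). With single replicates left out the unadjusted p went up to 0.00311 without replicate 5 in IWAT and 0.0162 without replicate 1 in RPWAT. By model the change in IWAT was 0.43 in WT-chow, 0.35 in WT-HFD and 0.12 in db/db-chow mice.

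Ccl11 was called higher in 5 of the 72 comparisons and lower in none. In WT-chow IWAT at 2 d it read 10.69, 10.55, 9.80, 10.37 and 9.98 with vehicle and 10.99, 11.35, 11.65, 11.71 and 10.39 with WT FGF21 (change 0.94, SE 0.22, adjusted p = 0.0116), with 1 treated array within the vehicle range. In WT-chow EWAT at 5 d it read 8.04, 8.72, 8.20, 7.66 and 7.69 and 9.19, 9.31, 9.69, 9.30 and 7.79 (change 0.99, SE 0.23, adjusted p = 0.00316), where 4 of the 5 treated arrays were above all vehicle arrays and 1 was not. With single replicates left out the adjusted p went up to 0.333 without replicate 3 and 0.119 without replicate 4. Ccl24, another eotaxin, was called lower in WT-HFD IWAT at 5 d with WT FGF21 and in WT-chow BAT at 5 d on 2.5 mg/kg (-0.51), and Ccl26l was called higher by 0.39 in db/db-chow BAT at 5 d on 2.5 mg/kg. These 3 calls were lost in leave-outs, with adjusted p up to 0.699 without replicate 3, 0.147 without replicate 3 and 0.142 without replicate 3. The receptor Ccr3 was called nowhere.

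Of the 9 lymphoid, mucosal and skin ligands, Ccl25, the thymus and gut ligand of Ccr9, was higher in the 3 white depots: 0.36 (SE 0.05, adjusted p = 6.44e-09) in IWAT, 0.25 (SE 0.04, adjusted p = 6.19e-06) in EWAT and 0.18 (SE 0.04, adjusted p = 0.000885) in RPWAT. In BAT it changed by 0.02 (SE 0.03, adjusted p = 0.766), and in RPWAT the unadjusted p went up to 0.0028 without replicate 1. In WT-HFD EWAT at 5 d it read 6.56, 6.70 and 6.74 with vehicle and 7.49, 7.14, 7.14, 7.15 and 7.02 with WT FGF21 (change 0.52, SE 0.14, adjusted p = 0.0157), without overlap, and the call was lost in leave-outs (adjusted p up to 0.291 without replicate 1). Its second probe set changed by 0.03 in IWAT, 0.04 in EWAT, 0.05 in RPWAT and -0.22 in BAT. Ccr9 was called nowhere.

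Ccl17 and Ccl22, the ligands of Ccr4 that dendritic cells and macrophages make, were lower over models and days in EWAT and RPWAT. Ccl17 changed by -0.33 (SE 0.09, adjusted p = 0.00505) and -0.33 (SE 0.08, adjusted p = 0.00261), and Ccl22 by -0.23 (SE 0.06, adjusted p = 0.00404) and -0.26 (SE 0.07, adjusted p = 0.00791). With single replicates left out the unadjusted p for Ccl17 went up to 0.00902 without replicate 5 and 0.00398 without replicate 5, and for Ccl22 up to 0.00222 without replicate 1 and 0.0153 without replicate 5. The change of Ccl17 in EWAT was -0.70 in WT-chow, -0.23 in WT-HFD and -0.06 in db/db-chow mice.

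In WT-chow EWAT at 5 d Ccl17 read 7.03, 7.07, 6.70, 7.26 and 7.12 with vehicle and 6.02, 5.25, 6.31, 6.09 and 6.33 with WT FGF21 (change -1.03, SE 0.24, adjusted p = 0.00279), all treated arrays below all vehicle arrays. It fell there by 1.01 (SE 0.24, adjusted p = 0.00354) at 2.5 mg/kg, and in WT-chow RPWAT at 5 d by 1.05 (SE 0.28, adjusted p = 0.02) with WT FGF21 and 0.96 (SE 0.26, adjusted p = 0.0189) at 2.5 mg/kg. In leave-outs the adjusted p went up to 0.0676 without replicate 2 for WT FGF21 in EWAT and to 0.182 without replicate 5 and 0.335 without replicate 5 in RPWAT. In db/db-chow BAT at 5 d Ccl17 rose by 0.56 with WT FGF21 and 0.54 at 2.5 mg/kg, with adjusted p up to 0.167 without replicate 4 and 0.0575 without replicate 4. Dendritic cell markers passed over models and days in EWAT for none of 7 genes.

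Ccl19, the ligand of Ccr7 that lymphoid stroma makes, was lower in BAT by 0.39 (SE 0.08, adjusted p = 6.1e-05). In WT-chow BAT at 5 d it read 7.17, 5.33, 5.59, 5.48 and 5.44 with vehicle and 4.76, 5.05, 4.77, 4.26 and 4.86 with WT FGF21 (change -1.07, SE 0.25, adjusted p = 0.0011), without overlap; vehicle replicate 1 at 7.17 was well above the other vehicle arrays. It fell by 1.02 (SE 0.25, adjusted p = 0.00145) at 0.75 mg/kg and by 0.89 (SE 0.25, adjusted p = 0.00521) at 2.5 mg/kg. With replicate 1 of every group left out, the change with WT FGF21 was -0.73 (adjusted p = 0.0779) and the adjusted p at 2.5 mg/kg was 0.216. Ccr7 was lower in EWAT over models and days, -0.32 (SE 0.08, adjusted p = 0.00199), with an unadjusted p up to 0.00308 without replicate 4. Ccl27 was lower in EWAT, -0.19 (SE 0.04, adjusted p = 0.00163), with an unadjusted p up to 0.00154 without replicate 5, and was called in both directions in BAT.

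Among receptors, Cxcr4, which binds Cxcl12 and sits on many leukocytes, and Cxcr7, the atypical receptor of the same ligand, were lower. Cxcr4 changed by -0.32 (SE 0.09, adjusted p = 0.0115) in IWAT and -0.46 (SE 0.12, adjusted p = 0.00429) in RPWAT, and with single replicates left out the unadjusted p went up to 0.00461 without replicate 2 and 0.0225 without replicate 5; the call in IWAT was lost whichever replicate was left out. In WT-chow RPWAT at 5 d it read 8.46, 8.91 and 10.77 on the 3 vehicle arrays and 8.43, 7.64, 8.001, 7.90 and 8.23 at 2.5 mg/kg (change -1.34, SE 0.35, adjusted p = 0.0117), without overlap by a narrow margin; vehicle replicates differed from 8.46 to 10.77 and the call was lost in leave-outs (adjusted p up to 0.478 without replicate 5). In WT-HFD mice at 5 d it fell by 1.27 (SE 0.26, adjusted p = 0.00137) in IWAT at 2.5 mg/kg and by 0.99 (SE 0.23, adjusted p = 0.00407) and 0.91 (SE 0.23, adjusted p = 0.00765) in EWAT at the low and the high dose, with adjusted p up to 0.0686 without replicate 2, 0.0743 without replicate 1 and 0.0617 without replicate 1.

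Cxcr7 changed by -0.20 (SE 0.04, adjusted p = 0.00051) in EWAT and -0.25 (SE 0.05, adjusted p = 4.39e-05) in RPWAT. In EWAT the change was -0.30 in WT-chow, -0.16 in WT-HFD and -0.13 in db/db-chow mice. Ccrl2, a receptor-like protein that binds chemerin, changed by -0.35 (SE 0.07, adjusted p = 2.62e-05) in EWAT and -0.30 (SE 0.07, adjusted p = 0.000702) in RPWAT, with an unadjusted p up to 0.00192 without replicate 1 in RPWAT. Of the 10 CC receptors only Ccr7 passed over models and days, in EWAT. Ccr10, the receptor of Ccl27, rose in WT-chow BAT at 5 d by 0.83 (SE 0.23, adjusted p = 0.00629) at 0.75 mg/kg and 0.69 (SE 0.23, adjusted p = 0.025) at 2.5 mg/kg, both lost in leave-outs (adjusted p up to 0.0732 without replicate 1 and 0.187 without replicate 1). Ccrn4l, which matched by name only, was higher over models and days in RPWAT, 0.22 (SE 0.07, adjusted p = 0.012), with an unadjusted p up to 0.0174 without replicate 3.

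**Figure D4:**
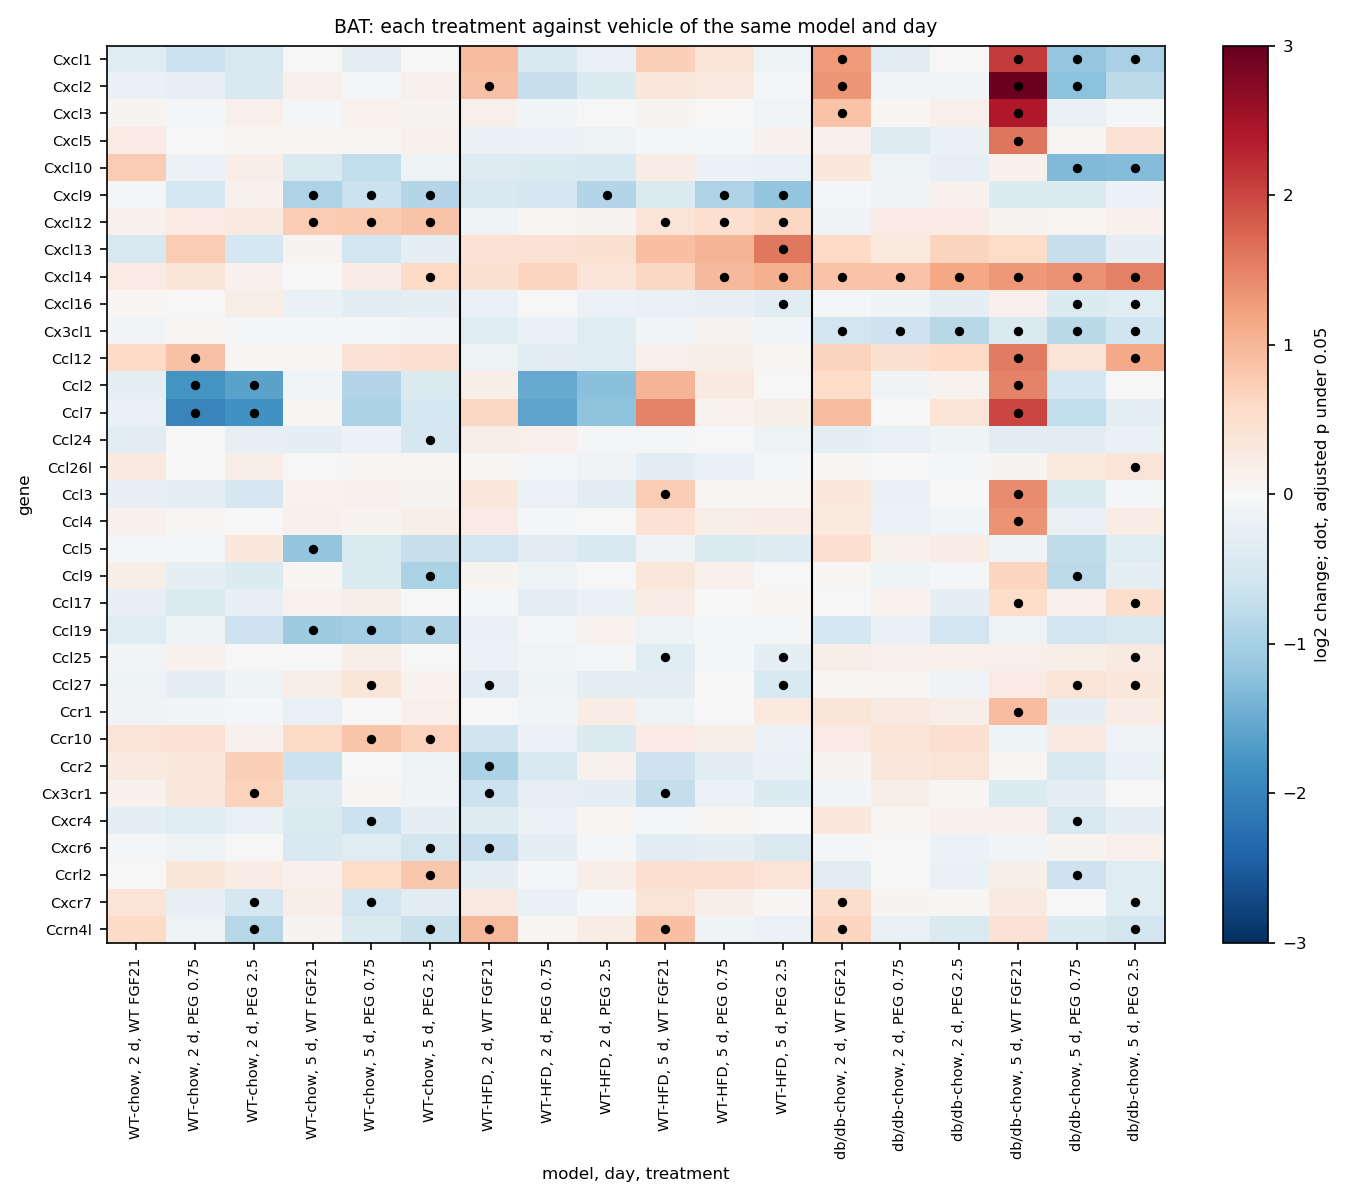
Change in log2 intensity in BAT (colour) of the 33 genes called at least once there (rows) in each of 18 comparisons with vehicle (columns: model, day and treatment; PEG, PEG30-FGF21 Q108 in mg/kg); a dot marks an adjusted p under 0.05. The column of db/db-chow, 5 d, WT FGF21 holds 13 dots, with Cxcl2 at 2.94 and Cxcl3 at 2.41, and the 6 db/db-chow columns all have dots for Cxcl14 and Cx3cl1.

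The 2 doses of PEG30-FGF21 Q108 were compared over models and days, 53 genes in each of 4 depots. Cxcr7 in EWAT was lower at 2.5 than at 0.75 mg/kg, with a difference of -0.21 (adjusted p = 0.0204), where 0.357% of all probe sets were called. Ccl27 in BAT was lower too, with a difference of -0.16 (adjusted p = 0.0215), where 1.70% were. No gene was called in IWAT (0.0160% of all probe sets; 1 gene had an unadjusted p under 0.05) or in RPWAT (0.366%; 8 genes). In leave-outs the adjusted p of the 2 calls went up to 0.209 without replicate 3 for Cxcr7 and 0.117 without replicate 3 for Ccl27.

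At an unadjusted p under 0.001, the FGF21 effect itself differed between db/db-chow and WT-chow mice for 1 gene in IWAT, Cxcl14 (2.00% of all probe sets), 2 in EWAT (0.989%), none in RPWAT (1.56%) and 3 in BAT (4.82%). Those in BAT were Cxcl14, Cx3cl1 and Cxcl12, the last on its chosen probe set. In EWAT these were Ccl4, with effects of -0.01 in WT-chow and -0.60 in db/db-chow mice (difference -0.59, SE 0.15, adjusted p = 0.0229), and Cxcl9, with 0.42 and -0.25 (difference -0.68, SE 0.20, adjusted p = 0.0994). Between WT-HFD and WT-chow mice it differed for none in IWAT (0.0893%), EWAT (0.554%) and RPWAT (0.836%) and for 2 in BAT (1.62%): Ccr10, 0.51 in WT-chow and -0.16 in WT-HFD mice (difference -0.67, SE 0.19, adjusted p = 0.0457), and Cxcl4, 0.09 and -0.21 (difference -0.29, SE 0.08, adjusted p = 0.0483). All of these except the Cxcl14 and Cx3cl1 differences in BAT were lost in some leave-out of a replicate, with an unadjusted p up to 0.00126 without replicate 3 for Cxcl12, 0.0066 without replicate 5 for Ccl4, 0.00748 without replicate 5 for Cxcl9, 0.0142 without replicate 5 for Cxcl14 in IWAT, 0.0147 without replicate 4 for Cxcl4 and 0.0148 without replicate 5 for Ccr10.

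Genes that act downstream of the receptors were read from a list of 17. In BAT 9 of them were lower over models and days and none higher, where 10.9% of all probe sets were lower, among them the GTPase Rac2 (-0.34), its guanine exchange factors Vav1 (-0.33) and Dock2 (-0.30), and the arrestins Arrb2 (-0.32) and Arrb1 (-0.24). In EWAT 1 was lower (Fgr, -0.27), and in IWAT and RPWAT none passed. In BAT 3 of 13 macrophage markers were lower too, with a median change of -0.20, and their part was not tested. Of 7 other chemokine-related genes Rarres2, which encodes chemerin, the ligand of Ccrl2 and Cmklr1, was higher in all 4 depots: 0.26 in IWAT, 0.29 in EWAT, 0.28 in RPWAT and 0.17 in BAT. The scavenging receptor Ccbp2 (now Ackr2) was higher in RPWAT (0.29), and the red cell and endothelial chemokine binder Darc (now Ackr1) was lower in EWAT (-0.22).

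The levels in vehicle mice were then set side by side by diet and by genotype, as a description with no test, because the array medians differ between models and strain, supplier and chow go with genotype. A gene stood apart where the vehicle arrays of both days did not overlap with those of WT-chow mice and the means differed by at least 1 log2 unit beyond the median difference of all probe sets, both as deposited and after quantile normalisation. As deposited that median was 1.17 in BAT, 0.87 in EWAT, 0.43 in RPWAT and -0.22 in IWAT for WT-HFD, and 0.47, 0.14, -0.14 and -0.03 for db/db-chow mice. On WT-HFD no chemokine gene stood apart in any depot, where 0.0733% (IWAT), 1.09% (EWAT), 0.282% (RPWAT) and 0.266% (BAT) of all probe sets did. In db/db-chow mice 4 stood apart in IWAT, all lower (3.08% of all probe sets), 12 in EWAT, 11 of them higher (4.16%, 2.21% higher), 5 in RPWAT, all higher (2.58%), and 9 in BAT, 6 of them higher (3.69%).

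The genes higher in db/db-chow fat were mostly CC and CXC ligands. In EWAT Cxcl2 was 8.67 ± 0.999 (SD, n = 10, 7.36 to 10.32) in db/db-chow against 4.59 ± 0.44 (SD, n = 10, 4.10 to 5.34) in WT-chow vehicle mice. Ccl3 was 7.54 ± 0.74 (SD, n = 10, 6.58 to 9.08) against 5.07 ± 0.20 (SD, n = 10, 4.74 to 5.43). Ccl8 and Ccl4 differed by 2.91 and 2.63, and Ccl7, Cxcl14, Ccl2, Cxcl5, Ccl12, Ccrl2 and Ccr1 also stood apart above, while Ccl21a, which lymphatic vessels make, stood apart below with a difference of -1.29. In RPWAT Cxcl2 (2.81), Ccl8 (2.84), Ccl4 (2.14), Ccl3 (1.81) and Ccl12 (1.80) stood apart above. Macrophage markers had mean levels of 8.82 to 9.66 in db/db-chow and 7.82 to 8.24 in WT-chow vehicle arrays of EWAT.

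In BAT Cxcl2 was 5.47 ± 0.58 (SD, n = 10, 4.42 to 6.51) in db/db-chow against 2.27 ± 0.43 (SD, n = 10, 1.41 to 2.94) in WT-chow mice, and Cxcl10 was 6.79 ± 0.59 (SD, n = 10, 5.94 to 7.60) against 4.10 ± 0.56 (SD, n = 10, 3.25 to 5.04). Ccl9 (2.25), Ccl4 (2.35), Ccl6 (1.93) and Cx3cl1 (1.67) stood apart above as well. Below were Cxcl12 (-0.99, chosen probe set), Ccl27 (-0.91) and Cxcr7 (-0.81), against a median shift of 0.47 over all probe sets. The second Cxcl12 probe set went the other way as deposited at 5 d, with 8.72 to 9.33 on db/db-chow and 8.10 to 8.35 on WT-chow vehicle arrays. The third read 4.75 to 4.89 and 4.79 to 5.17 on these arrays. Macrophage markers had mean levels of 6.74 to 8.01 in db/db-chow and 5.02 to 5.88 in WT-chow vehicle arrays of BAT, and their part in these levels was not tested.

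In IWAT the genes that stood apart were Cxcl13, Ccr10, Ccl27 and Cxcl9, all lower in db/db-chow mice. Cxcl13 was 10.07 ± 0.95 (SD, n = 10, 8.74 to 11.86) against 12.19 ± 0.19 (SD, n = 10, 11.89 to 12.44), and Ccr10 (-1.66), Ccl27 (-1.41) and Cxcl9 (-1.16) were lower too. Without the vehicle array that stood apart, 5 genes met the criterion. B cell markers had mean levels of 5.08 to 8.70 in db/db-chow and 5.35 to 9.46 in WT-chow vehicle arrays of IWAT, and their part was not tested.

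**Figure D5:**
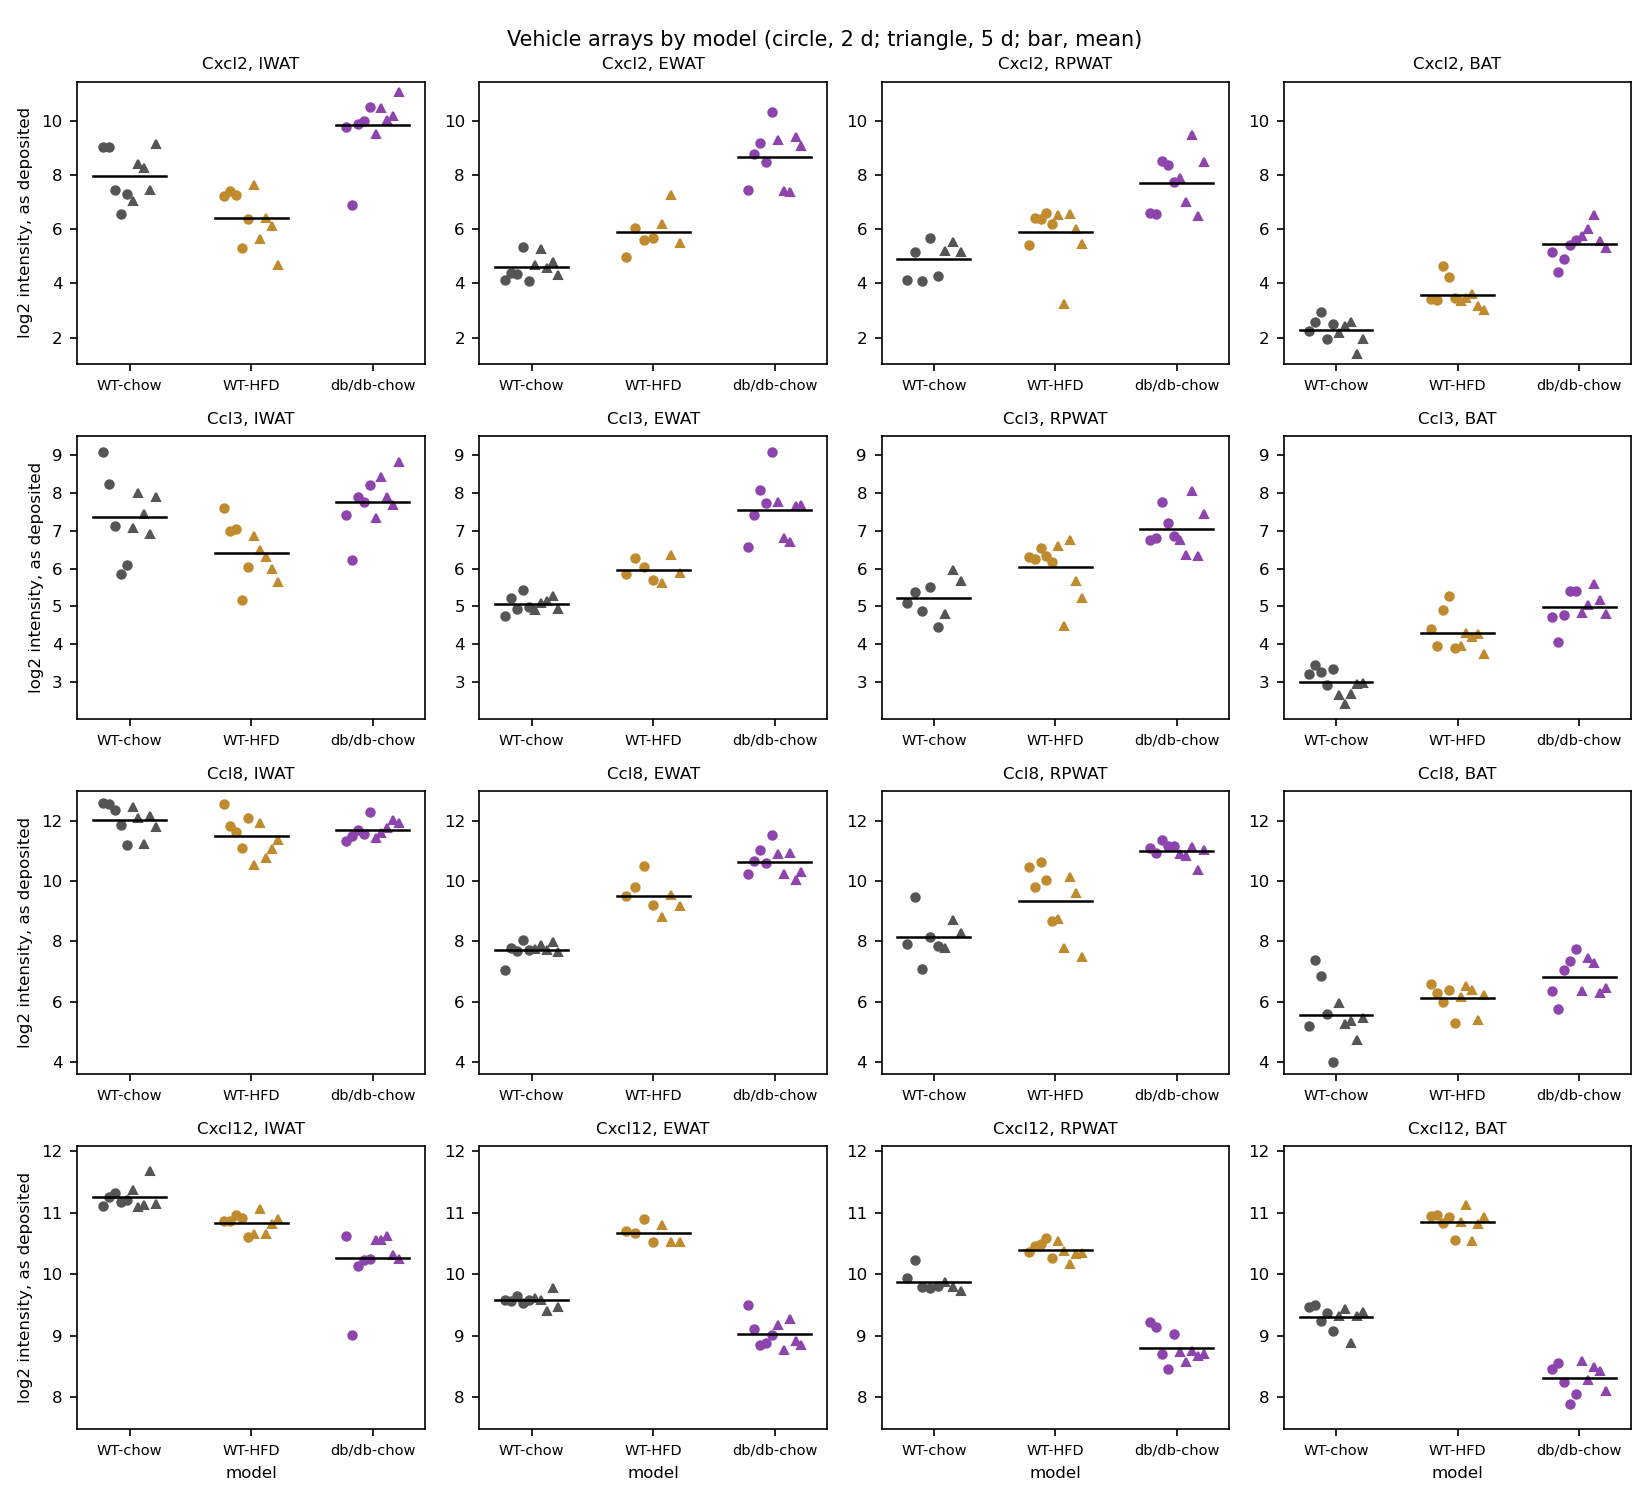
Log2 intensity as deposited of Cxcl2, Ccl3, Ccl8 and Cxcl12 (rows) on the vehicle arrays of IWAT, EWAT, RPWAT and BAT (columns) by model; circles are arrays of 2 d, triangles of 5 d, bars means. In EWAT, RPWAT and BAT the db/db-chow arrays of Cxcl2 lie above all WT-chow arrays. Those of the chosen Cxcl12 probe set in BAT (7.88 to 8.59) lie below the WT-chow arrays (8.88 to 9.50).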

How the data were processed

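Adipose RNA was labelled with NuGEN Ovation kits and hybridised to custom Affymetrix mouse arrays. The authors deposited intensity values on a linear scale, summarised by RMA in Rosetta Resolver, from 1.653 to 22400; 0 value columns were left unused. The number of arrays limits the precision. Here log2 was taken with no further scaling or filter. Genes were named through the platform annotation, and promoters come from RefSeq (GRCm38.p6).

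limma 3.58.1 in R 4.3.3 was fitted per depot on all 43681 probe sets with a trended prior: an N-way model of FGF21, mouse model and day, called at p under 0.001 after the study's methods, and a model of the 24 groups, called at a Benjamini-Hochberg adjusted p under 0.05. Tables and plots used python 3.11.15, pandas 2.3.3, numpy 2.4.6 and matplotlib 3.10.9. No statement in the labels pairs arrays or says more of the replicates than their number, so p-values measure the spread between these samples.

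The genes and the marker and pathway lists were chosen with earlier results of these data known. Named were Ccl11 and Cxcl2, up to 6 called genes per depot with the smallest p, the 3 genes with most calls in each direction, up to 3 genes per comparison of doses or models, 4 genes per depot and direction furthest apart in vehicle mice, and the brightest of each role; all others were named after their values were seen. Alternatives were quantile normalisation, a filter on dim probe sets, the mean of all probe sets of a gene, array weights, a replicate block, other thresholds, the methods' ANOVA, fits on fewer arrays and leaving out each replicate, and, chosen after seeing the data, leaving out the 2 arrays that stood apart. In arrays simulated from IWAT, a true log2 change of 0.5 was found in 67 of 67 probe sets by the N-way test and in 26 of 67 by a single comparison, a change of 1 in 60 of 67 by the latter, and 37 of 43481 unchanged probe sets were called by the N-way test.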

Additional observations from a re-analysis of the deposited data

Results flagged for a closer look

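Among 50 groups of 4 or 5 arrays whose values are printed above, 12 held 1 array further from the others than Dixon's 95% limit, and chance gives about 1 in 20. In IWAT of WT-HFD mice at 5 d with WT FGF21, replicate 3 was low for Cxcl1 (5.61) and Cxcl2 (4.86), and this array also stood apart over all probe sets. In BAT of db/db-chow mice at 5 d, replicate 2 on 0.75 mg/kg PEG30-FGF21 Q108 was high for Cxcl10 (6.61), vehicle replicate 2 high for Cxcl14 (7.35) and vehicle replicate 5 high for Cx3cl1 (7.01). In BAT of WT-chow mice at 5 d, vehicle replicate 3 was low for Cxcl12 (8.88), replicate 5 on 2.5 mg/kg low for Cxcl12 (9.70) and vehicle replicate 1 high for Ccl19 (7.17). In EWAT of WT-chow mice at 5 d with WT FGF21, replicate 5 was low for Ccl11 (7.79) and replicate 2 low for Ccl17 (5.25). In EWAT of WT-HFD mice, replicate 1 with WT FGF21 at 5 d was high for Ccl25 (7.49) and replicate 5 on 2.5 mg/kg at 2 d low for Ccl8 (7.69).

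The FGF21 effect differed between db/db-chow and WT-chow mice, in the limma test of the difference itself, for Cxcl14 in IWAT (0.91) and BAT (0.92), for Cx3cl1 (-0.60) and the chosen probe set of Cxcl12 (-0.39) in BAT and for Ccl4 (-0.59) and Cxcl9 (-0.68) in EWAT. Between WT-HFD and WT-chow mice it differed for Ccr10 (-0.67) and Cxcl4 (-0.29) in BAT. The p-values and the effects in each model stand with these genes above.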

How the results depend on the processing

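Of 168 results for single genes, 127 fell short of the threshold in at least 1 alternative and 1 turned its direction: Cxcl12 in BAT, at -0.027 as the mean of all its probe sets. Of 1940 alternative values 1534 kept direction and side of the threshold. Over models and days, IWAT went from 4 called genes to 7 with a Benjamini-Hochberg adjusted p under 0.05, 10 with array weights and 8 without the arrays that stood apart, and BAT from 7 to 11 with the adjusted p. Leaving out single replicates gave 2 to 5 in IWAT, 9 to 13 in EWAT, 5 to 10 in RPWAT and 5 to 9 in BAT. Calls in single comparisons became 137 in IWAT, 161 in EWAT, 140 in RPWAT and 154 in BAT by the methods' ANOVA at p under 0.05 and 1.2-fold, and 2, 13, 3 and 46 after Benjamini-Hochberg adjustment of it. Array weights gave 50 in IWAT and 43 in RPWAT. Leaving out single replicates gave 12 to 44 in IWAT, 31 to 37 in EWAT, 9 to 28 in RPWAT and 72 to 86 in BAT.

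The dose calls were 0 in EWAT with arrays of the 2 doses alone, 0 in BAT with the mean of all probe sets, and 0 to 1 in both without single replicates. Differences between models in IWAT fell from 1 to 0 with quantile normalisation, array weights, group means or without the arrays that stood apart, and were 0 to 1 without single replicates. In EWAT they were 4 with array weights or group means, 1 with quantile normalisation, the filter on dim probe sets, the mean of all probe sets or an adjusted p, and 0 to 3 without single replicates. In BAT they were 8 with group means and 2 to 4 without single replicates, and in RPWAT 0 to 1. Genes apart in vehicle mice were 8 in RPWAT after quantile normalisation alone, and without single replicates 4 to 8 in IWAT, 12 to 13 in EWAT, 5 to 8 in RPWAT and 8 to 12 in BAT. The cause of these shifts was not tested.

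Within a depot, model and day, deviations of treated and vehicle arrays with the same replicate number correlated with medians between -0.0194 and 0.0352. Single correlations ran from -0.457 to 0.501. The medians gave no sign that the numbers pair treated with vehicle arrays. Arrays of different depots with the same number were not compared, so whether they share a mouse was not tested. With the replicate number as a block, 4 genes in IWAT, 13 in EWAT, 9 in RPWAT and 7 in BAT passed over models and days, 22, 44, 22 and 99 calls were made in single comparisons, the dose and model counts were 0, 1, 0 and 1 and 1, 2, 0 and 5, and 6 of the 168 single results fell short.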
